A study of Rattus norvegicus with 6 samples.

Results

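The Wnt genes described here are 46 of the 18923 genes in the deposited tables. They were picked out by gene symbol, with earlier results of these data known, and comprise 15 Wnt ligands, 9 Frizzled receptors, 5 co-receptors and other Wnt receptors, 7 genes of the R-spondin axis, 5 genes of β-catenin and its TCF/LEF partners, and 5 feedback inhibitors. Axin1, Rspo4 and Znrf3 belong to the same list and were not analysed here. Primary chondrocytes were isolated with collagenase from cartilage of wild-type female Sprague-Dawley rats aged 24 h and were used at passage 1 or 2. The CON group received high-glucose DMEM with fetal bovine serum and antibiotics, and the RA group received the same medium with 1 µM all-trans retinoic acid for 24 h, with 3 samples in each group. The labels name no vehicle for CON and do not say how many animals gave each sample. The methods call the 3 samples of a group independent, without saying whether they came from different animals or from separate cultures, so the p-values measure the spread between these samples, whatever its source.

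Wnt proteins are secreted, lipid-modified ligands that bind Frizzled receptors. Together with the co-receptors Lrp5 and Lrp6 they keep β-catenin from being degraded, so that it enters the nucleus and acts with TCF/LEF factors. Other Wnt ligands act through Ror1, Ror2 or Ryk without β-catenin, and R-spondins raise the amount of Frizzled at the cell surface through Lgr receptors and the ubiquitin ligases Rnf43 and Znrf3. β-catenin induces several of its own inhibitors, among them Axin2, Nkd1, Apcdd1 and Notum, which are therefore read as feedback targets. In cartilage this pathway is known to restrain the chondrocyte phenotype and to promote hypertrophy and matrix loss when it is strongly active.

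Total counts ran from 29370025 to 38007486 per sample, and after low counts were filtered out 13438 genes were tested with edgeR's quasi-likelihood test. A gene was called a DEG where its Benjamini-Hochberg adjusted p was below 0.05 and its log2 fold change between RA and CON (log2FC, with SE its standard error) was above 0.58 or below -0.58. For all 9 chondrocyte markers of the list used here every RA sample lay below every CON sample (15.1% of all genes tested), and 8 of them were DEGs and lower (2.29%). Their summed level was 6587 to 8614 FPKM in CON and 4121 to 4445 FPKM in RA. The summed level of 6 fibroblast and perichondrium markers was 3728 to 4918 FPKM in CON and 4811 to 5065 FPKM in RA, and Postn, the gene of periostin, was the 1 DEG among them, with a log2FC of -1.28. Past the adjusted p alone, Dcn was lower at -0.41 and Pdgfra higher at 0.44, and for Thy1, which did not pass, every RA sample lay above every CON sample. Of 6 macrophage, 5 endothelial, 5 skeletal muscle and 6 osteoblast markers present, 3, 2, 2 and 4 were tested. The macrophage sum was 13.2 to 14.6 FPKM in CON and 16.1 to 17.3 FPKM in RA, almost all from Cd14, while Ptprc and Adgre1, which define leukocytes and macrophages, stayed at or below 0.027 FPKM. The endothelial sum was 5.49 to 8.03 FPKM in CON and 6.22 to 6.85 FPKM in RA, and the defining marker Cdh5 was at or below 0.00809 FPKM. The muscle sum was 4.59 to 5.72 FPKM in CON and 6.80 to 7.57 FPKM in RA, almost all from Des, while Ckm, Actn2 and Myh3 stayed at or below 0.135 FPKM. Myod1 was a DEG at 0.282 to 0.432 FPKM in RA and kept the call in 3 of the 6 fits with a sample omitted. The osteoblast sum was 8.25 to 9.56 FPKM in CON and 8.27 to 8.52 FPKM in RA, with Ibsp as a DEG at a log2FC of 1.47 and Alpl past the adjusted p in the other direction at -0.42. The part of other cell types in the Wnt results was not tested, and fewer cells of a type and less RNA per cell cannot be told apart in these bulk samples.

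Of the 46 Wnt genes, 37 passed the filter and 6 of these were DEGs, or 16.2%, beside 4.96% of all genes tested. Wnt2b, Wnt7b, Fzd5, Axin2 and Notum were higher in RA and Rspo3 was lower, beside 2.67% of all genes that were DEGs and higher and 2.29% that were DEGs and lower. Each of these 6 genes had at least 20 reads in every sample, so none of them entered the test through 1 group alone. With the adjusted p alone, 12 of 37 Wnt genes passed, or 32.4% (9.82% of all genes tested), of which 7 were higher (5.31% of all genes tested) and 5 lower (4.5%). The groups did not overlap in 20 of the 37, or 54.1%, beside 31.9% of all genes tested. The median log2FC was 0.057 over the 37 genes and -0.0057 over all genes tested. Of the 37, 23 lay above 0, beside 48.9% of all genes tested. Without CON sample 3 the median of the 37 was 0.21.

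**Figure D1:**
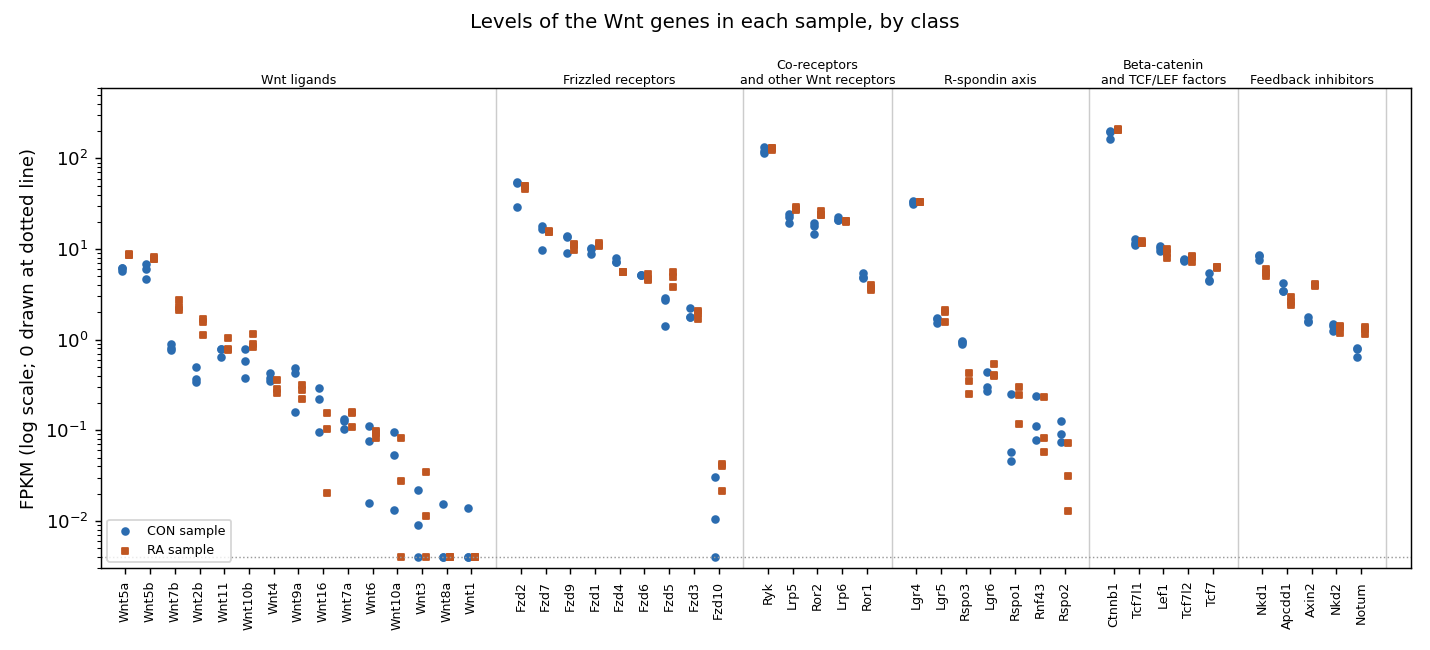
FPKM of each of the 46 Wnt genes on a log axis, grouped by class and ordered by mean level within a class, with 3 CON samples as blue circles and 3 RA samples as orange squares. Ctnnb1 and Ryk stood above 100 FPKM in every sample, whereas 7 of the 15 ligands were below the filter on low counts.

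On the FPKM scale, which corrects for gene length and allows levels of different genes to be set side by side, 11 of the 46 genes had a mean above 10 FPKM over the 6 samples, 17 lay between 1 and 10 and 18 lay below 1. Receptors were far more abundant than ligands. The summed FPKM of the 15 ligands was 14.1, 16.1 and 16.8 in CON samples 1, 2 and 3 and 24.5, 22.4 and 23.1 in RA samples 1, 2 and 3. The 9 Frizzled genes together reached 72.9, 111 and 114 FPKM in CON and 98.2, 104 and 106 FPKM in RA. Ligand sums were therefore higher in each RA sample than in any CON sample, while Frizzled sums overlapped, with CON sample 1 lowest.

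Wnt5a and Wnt5b, ligands known in the growth plate for signalling without β-catenin, made up most of the ligand message. They held 76.0% ± 2.44 of the summed ligand FPKM in CON and 71.6% ± 2.65 in RA (± SD of 3 samples). Wnt5a (ENSRNOG00000015618) was at 6.25, 5.77 and 6.15 FPKM in CON samples 1 to 3 and at 8.58, 8.69 and 8.90 FPKM in RA samples 1 to 3. All 3 RA samples lay above all 3 CON samples, with a narrow spread in both groups. The log2FC was 0.51 (SE 0.0661, edgeR adjusted p = 0.00202), past the threshold on p and short of the threshold on fold change. Wnt5b was at 4.64, 5.97 and 6.90 FPKM in CON and at 8.23, 7.84 and 7.70 FPKM in RA, again without overlap. Its CON samples were further apart, and its log2FC of 0.42 did not pass (SE 0.141, edgeR adjusted p = 0.108). The adjusted p of Wnt5b was below 0.05 in DESeq2 (0.0427) and without CON sample 3 (0.0265), at log2FC values of 0.42 and 0.575, both short of the fold threshold. In the other fits with a sample omitted it ran from 0.0539 without CON sample 1 to 0.262 without RA sample 1 (edgeR). The log2FC was 0.28 without CON sample 1.

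Wnt2b and Wnt7b, both of low abundance, were the DEGs among the ligands, and with Wnt5a they were the 3 ligands past the adjusted p. Wnt2b (ENSRNOG00000014385), a ligand that acts through β-catenin, was at 0.367, 0.504 and 0.341 FPKM in CON and at 1.71, 1.13 and 1.58 FPKM in RA. These levels rest on 20, 27 and 23 reads in CON and on 90, 59 and 87 reads in RA, so every RA sample held more than any CON sample. Its log2FC of 1.86, or 3.62-fold (SE 0.26, edgeR adjusted p = 0.00303), was the largest among the Wnt genes tested. Wnt7b (ENSRNOG00000015750), a ligand linked to bone formation and chondrocyte maturation, was at 0.887, 0.775 and 0.805 FPKM in CON and at 2.74, 2.12 and 2.31 FPKM in RA. The CON samples agreed closely and the RA samples lay far above them, with a log2FC of 1.52, or 2.87-fold (SE 0.144, edgeR adjusted p = 3.92e-04). The share of Wnt2b and Wnt7b in the summed ligand FPKM was 7.89% ± 1.03 in CON and 16.5% ± 1.84 in RA (± SD of 3 samples).

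The remaining 4 ligands that were tested did not pass. Wnt10b, which is known to favour bone over fat formation, was at 0.379, 0.786 and 0.577 FPKM in CON and 1.16, 0.899 and 0.824 FPKM in RA. The groups did not overlap, but the spread left a standard error of 0.29 on its log2FC of 0.71 (edgeR adjusted p = 0.181). Wnt4, Wnt7a and Wnt11 had log2FC values of -0.38, 0.20 and 0.21. Over the 8 tested ligands the median log2FC was 0.47, and it ranged from 0.38 to 0.55 when single samples were omitted. The log2FC was above 0 in 7 of the 8, beside 48.9% of all genes tested. Wnt1, Wnt3, Wnt6, Wnt8a, Wnt9a, Wnt10a and Wnt16 were below the filter, with at most 15 reads in any sample. Wnt1 and Wnt8a each had a single read in 1 sample and none in the others, where a count of 0 allows up to 3 reads, or 0.0789 to 0.102 CPM, for counting error only.

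**Figure D2:**
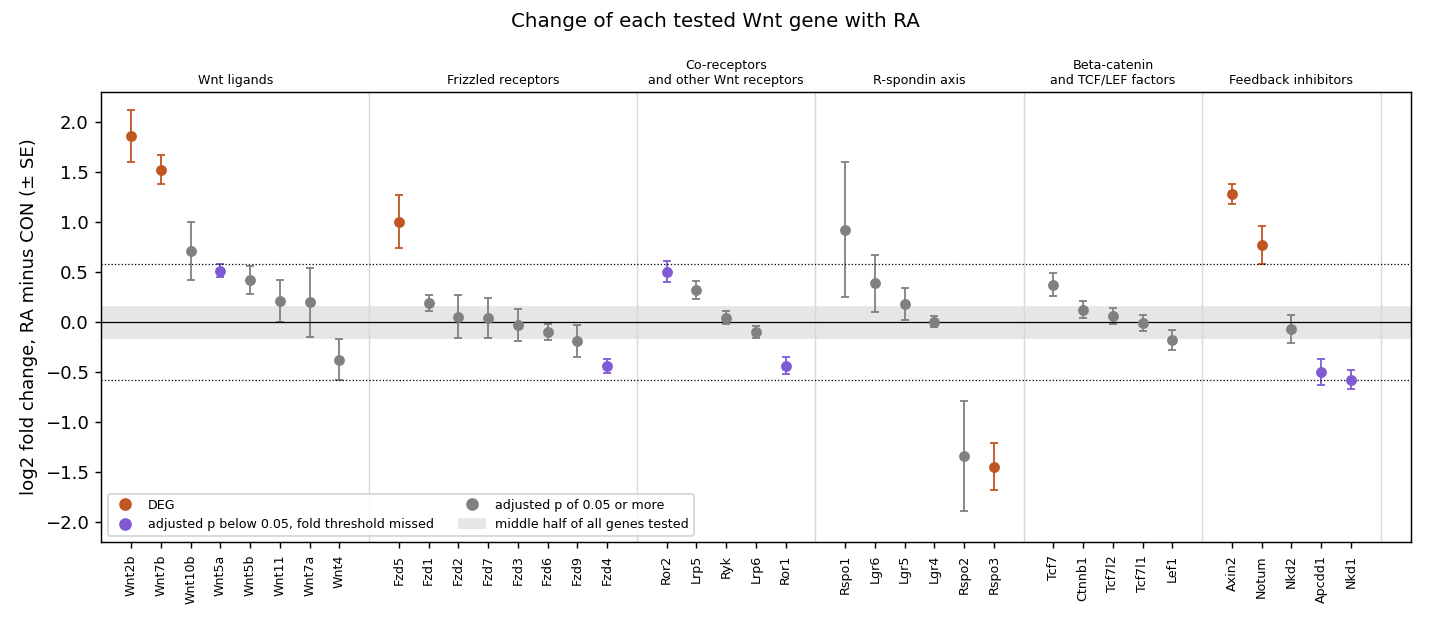
The log2FC (RA minus CON) with its standard error for the 37 Wnt genes tested, by class, with dotted lines at 0.58 and -0.58 and a grey band from the lower to the upper quartile of all genes tested. Orange marks the 6 DEGs, purple the 6 genes past the adjusted p alone, and grey the other 25.

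Among the receptors, Fzd5 (ENSRNOG00000014678), a Frizzled for several ligands including Wnt5a, was the single DEG. It was at 1.42, 2.73 and 2.86 FPKM in CON and at 3.79, 4.89 and 5.54 FPKM in RA. The groups did not overlap, and CON sample 1 stood well below the other CON samples. The log2FC was 1.00 (SE 0.264) and the adjusted p of 0.0496 from edgeR was close to the threshold. It was 0.75 without CON sample 1 and 1.19 without CON sample 3, where it stayed a DEG. The call was lost when CON sample 2 was omitted (1.12), and likewise for RA samples 1 (1.15), 2 (0.98) and 3 (0.87), with adjusted p from 0.0726 to 0.185 in those fits. It was also lost in the limma fit on log2 FPKM (1.03, limma adjusted p = 0.0616).

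Fzd4 (ENSRNOG00000016848), which also serves as the receptor for norrin, was at 8.03, 7.20 and 7.18 FPKM in CON and at 5.55, 5.56 and 5.56 FPKM in RA. The RA samples were nearly identical and lay below every CON sample, with a log2FC of -0.44 (SE 0.0673, edgeR adjusted p = 0.00479), which missed the fold threshold. Fzd2, the most abundant Frizzled, held 45.4% ± 4.98 of the summed Frizzled FPKM in CON and 46.9% ± 0.248 in RA (± SD of 3 samples). It was at 28.9, 53.4 and 55.5 FPKM in CON and at 45.9, 49.1 and 49.6 FPKM in RA, so that CON sample 1 alone lay below RA and the other CON samples above it. Its log2FC was 0.054 with all samples (adjusted p = 0.905) and -0.19 without CON sample 1 (edgeR adjusted p = 0.0348). Fzd7, named after its values were seen, showed the same arrangement, at 9.76, 16.6 and 18.1 FPKM in CON and 15.3, 15.3 and 15.7 FPKM in RA. Its log2FC turned from 0.042 to -0.19 without CON sample 1 (edgeR adjusted p = 0.0579).

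CON sample 1 was the lowest of the 6 samples in 5 of the 8 Frizzled genes tested and in 15 of the 37 Wnt genes, beside 31.4% of all genes tested. The median log2 ratio of CON sample 1 to the mean of the other CON samples was -0.41 over the Frizzled genes and -0.0071 over all genes tested. The other Frizzled genes tested, Fzd1, Fzd3, Fzd6 and Fzd9, had log2FC values between -0.19 and 0.19 and did not pass. Without CON sample 1 the log2FC of Fzd9 went from -0.19 to -0.37 (edgeR adjusted p = 0.00506), short of the fold threshold. The Frizzled median of 0.0076 turned negative without CON sample 1 (-0.15) and when RA sample 2 (-0.0082) or RA sample 3 (-0.024) was omitted, so that no direction can be given for the class. Fzd10 was below the filter, with at most 4 reads in any sample.

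The Ror genes encode receptor tyrosine kinases that bind Wnt5a, and Ror2 is known for its part in the growth of cartilage. Ror2 (ENSRNOG00000053232) was at 14.7, 17.9 and 19.2 FPKM in CON and at 23.9, 24.0 and 26.3 FPKM in RA, and Ror1 (ENSRNOG00000029449) was at 5.38, 4.89 and 4.82 FPKM in CON and at 3.72, 3.97 and 3.56 FPKM in RA. Neither gene overlapped between the groups, and the 2 lay on opposite sides. Ror2 had a log2FC of 0.50 (SE 0.105, edgeR adjusted p = 0.0191) and Ror1 one of -0.43 (SE 0.0813, edgeR adjusted p = 0.0118), both short of the fold threshold. Ror2 became a DEG without CON sample 3, at 0.60. The adjusted p of Ror2 passed 0.05 upward in 4 of the 6 fits with a sample omitted, reaching 0.0931 without RA sample 3, and that of Ror1 in 2, reaching 0.0775 without RA sample 3. The difference between the changes of Ror1 and Ror2 was not tested.

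Ryk, a further Wnt receptor, was the most abundant receptor gene of the list, at 123.6 ± 8.97 FPKM in CON and 128.6 ± 3.67 FPKM in RA (± SD of 3 samples). Its log2FC was 0.046, and the interval of 2 standard errors on either side ran from -0.084 to 0.18. The co-receptors that pass the signal to β-catenin were both expressed. Lrp5 was at 19.6, 22.4 and 24.5 FPKM in CON and 26.7, 27.7 and 29.4 FPKM in RA, without overlap, and its log2FC of 0.32 did not pass (edgeR adjusted p = 0.0699). The adjusted p of Lrp5 was below 0.05 in DESeq2 (0.0206), with the replicate block (0.0125), without CON sample 1 (0.0261) and without CON sample 3 (0.0218), where the log2FC of 0.23 to 0.41 missed the fold threshold. Lrp6 had a log2FC of -0.099 (edgeR adjusted p = 0.359).

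Rspo3 (ENSRNOG00000011568), the R-spondin of highest level in these cells, was the DEG that fell. It was at 0.964, 0.938 and 0.890 FPKM in CON and at 0.351, 0.432 and 0.252 FPKM in RA, from 91, 87 and 104 reads in CON and 32, 39 and 24 reads in RA. All 3 RA samples lay well below all 3 CON samples. The log2FC was -1.44 (SE 0.231, edgeR adjusted p = 0.0058) and ranged from -1.64 to -1.26 over the 6 fits in which 1 sample was omitted. Rspo2, named after its values were seen, was at 2 to 20 reads per sample and had a log2FC of -1.34 that did not pass (SE 0.549, edgeR adjusted p = 0.184). The log2FC of Rspo2 was -2.12 without RA sample 2, -0.93 without RA sample 1 and -0.53 in limma. Rspo1 was at 3 to 15 reads and had a log2FC of 0.92 (SE 0.676, edgeR adjusted p = 0.449).

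Of the R-spondin receptors, Lgr4 carried most of the message. It was at 33.1, 33.9 and 31.4 FPKM in CON and at 33.4, 32.8 and 33.3 FPKM in RA, and its log2FC of 0.0021 had an interval of 2 standard errors on either side from -0.11 to 0.11. Its sign turned without CON sample 3 (-0.019) or RA sample 3 (-0.0037). Lgr5, itself known as a β-catenin target in stem cells, was at 1.66 ± 0.115 FPKM in CON and 1.89 ± 0.302 FPKM in RA (± SD of 3 samples), and Lgr6 was at 0.337 ± 0.0942 and 0.45 ± 0.0788 FPKM. Neither passed the test. Rnf43, the ligase that removes Frizzled from the surface, was below the filter, with 4 to 17 reads per sample.

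β-catenin and its nuclear partners did not pass the test. Ctnnb1, the gene of β-catenin, was at 166, 202 and 198 FPKM in CON and 207, 204 and 212 FPKM in RA, with a log2FC of 0.13 (SE 0.0813, edgeR adjusted p = 0.393). Of the TCF/LEF factors, Tcf7l1, mainly a repressor, was at 12.0 ± 0.953 FPKM in CON and 12.0 ± 0.348 FPKM in RA (± SD of 3 samples). Lef1, Tcf7l1 and Tcf7l2 had log2FC values of -0.18, -0.012 and 0.057, and none passed. Tcf7, named after its values were seen, was at 4.45, 5.39 and 4.60 FPKM in CON and 6.28, 6.33 and 6.23 FPKM in RA. These groups did not overlap, and the log2FC of 0.37 did not pass (SE 0.115, edgeR adjusted p = 0.0868). None of the 5 genes was a DEG or passed the adjusted p, 4 had an unadjusted p of 0.107 or more in edgeR, and DESeq2 called none either. These values are of mRNA and do not measure the amount of β-catenin protein.

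**Figure D3:**
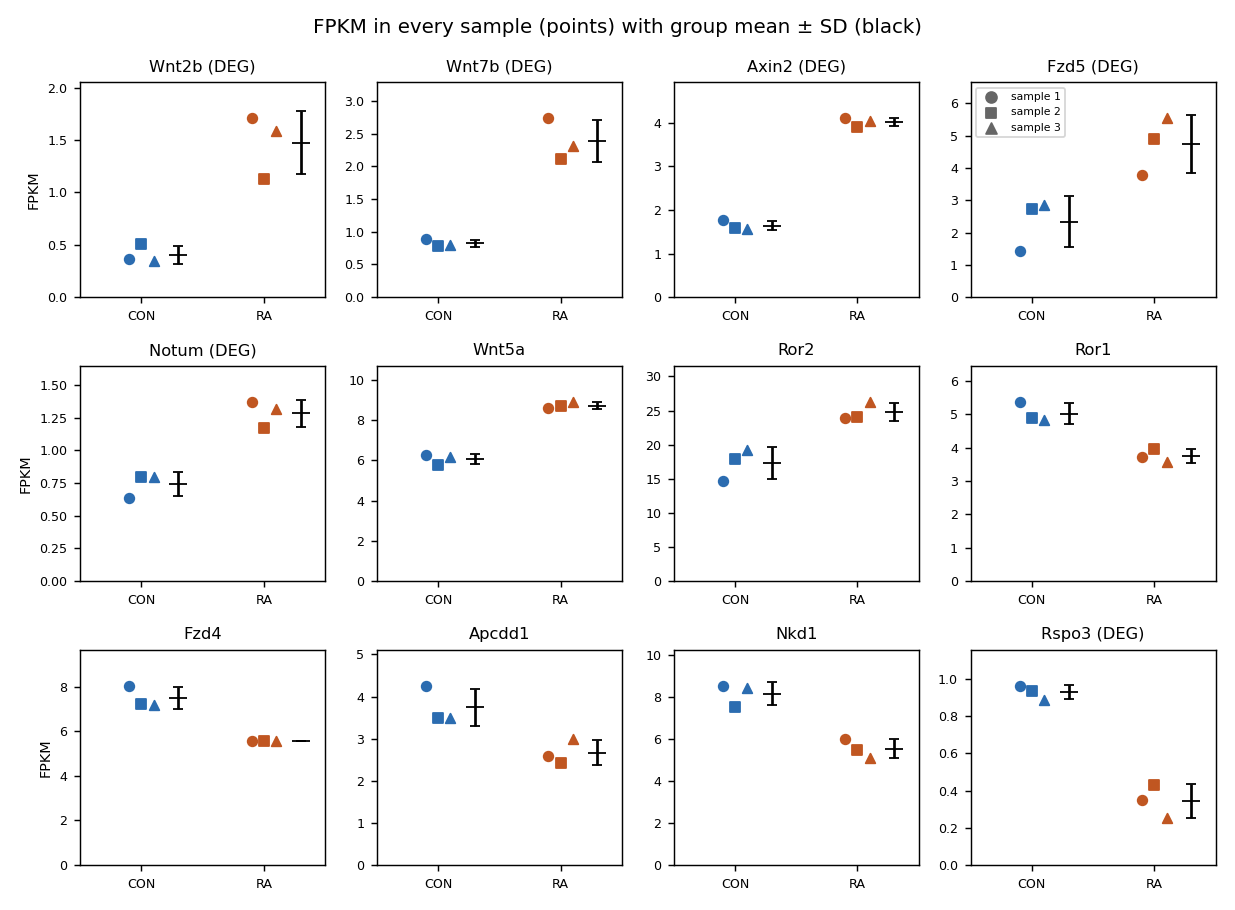
FPKM in each of the 3 CON samples (blue) and 3 RA samples (orange) for the 12 Wnt genes past the adjusted p, ordered by log2FC from top left, with the group mean and SD in black and each axis starting at 0. The marker shape gives the sample number. In none of the 12 genes do the groups overlap, which their selection by the adjusted p makes likely. The groups did not overlap in 31.9% of all genes tested.

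The feedback inhibitors lay on both sides of CON. Axin2 (ENSRNOG00000055010), a scaffold of the complex that degrades β-catenin and the most widely used readout of the pathway, was at 1.76, 1.60 and 1.56 FPKM in CON and at 4.10, 3.91 and 4.03 FPKM in RA. The samples of each group lay close together and the groups far apart, and the log2FC was 1.28, or 2.43-fold (SE 0.0983, edgeR adjusted p = 1.42e-04). Over the 6 fits in which 1 sample was omitted it ranged from 1.25 to 1.33, and Axin2 stayed a DEG in all of them. Notum (ENSRNOG00000036680), an enzyme that inactivates Wnt proteins by removing their lipid, was at 0.638, 0.796 and 0.799 FPKM in CON and at 1.37, 1.17 and 1.31 FPKM in RA. The groups were well apart, with a log2FC of 0.77 (SE 0.192, edgeR adjusted p = 0.0408). Notum had 40 to 83 reads per sample, and its log2FC ranged from 0.67 to 0.84 in the 6 fits in which 1 sample was omitted, with adjusted p from 0.0581 to 0.149, so that it was a DEG in 0 of them.

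Nkd1 (ENSRNOG00000014293), which binds Dishevelled and dampens the signal, was at 8.54, 7.55 and 8.41 FPKM in CON and at 6.02, 5.49 and 5.11 FPKM in RA. All RA samples lay below all CON samples, and the log2FC of -0.57 (SE 0.0966, edgeR adjusted p = 0.00732) fell just short of the fold threshold. It became a DEG without CON sample 2 (-0.63) or RA sample 1 (-0.63). Apcdd1 (ENSRNOG00000043304), a membrane protein that binds Wnt and Lrp proteins, was at 4.25, 3.49 and 3.48 FPKM in CON and 2.60, 2.41 and 2.99 FPKM in RA. It was also lower without overlap, with a log2FC of -0.50 (SE 0.131, edgeR adjusted p = 0.0487). Of the 6 fits with a sample omitted, that without CON sample 1 kept the adjusted p below 0.05 (-0.40, edgeR adjusted p = 0.0437), and in the others it ran up to 0.189. With all samples it was 0.0556 under total-count scaling, 0.0503 without a filter and 0.0744 in limma. Nkd2 had a log2FC of -0.070 and did not pass (edgeR adjusted p = 0.798). Of the 5 feedback inhibitors tested, 2 were thus higher (5.31% of all genes tested) and 2 lower (4.5%) at the adjusted p, and their summed FPKM was 14.9 to 16.6 in CON and 14.4 to 15.5 in RA.

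**Figure D4:**
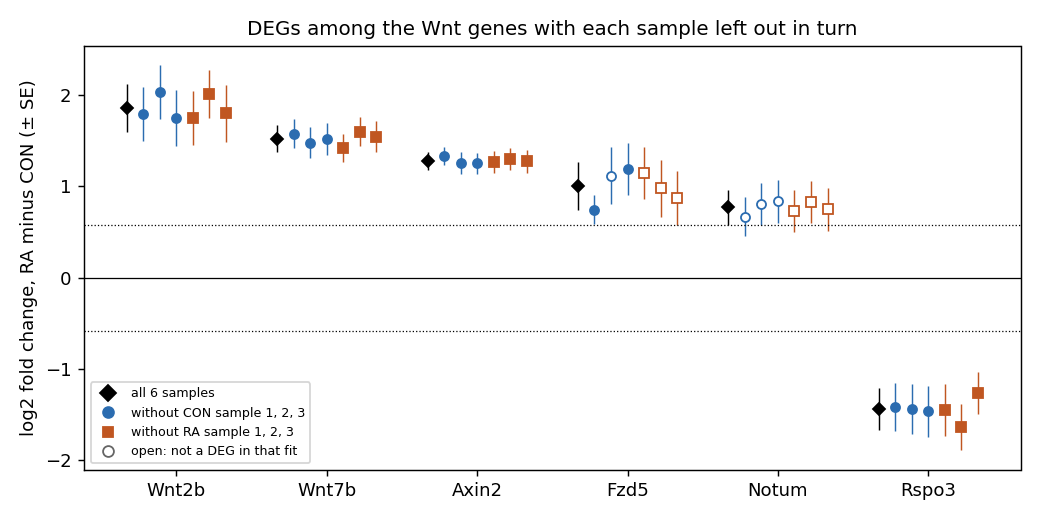
The log2FC (RA minus CON) with its standard error for the 6 DEGs, with all samples (black diamond) and with CON sample 1, 2 or 3 (blue circles) or RA sample 1, 2 or 3 (orange squares) left out. Filled symbols are DEGs in that fit: Wnt2b, Wnt7b, Axin2 and Rspo3 were filled in all 6, Fzd5 in 2 and Notum in 0.

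Axin2 and Nkd1 lay on opposite sides of 0. Their promoters are shown because they were the 2 of the 35 matched Wnt promoters that held the letters CTTTGAT. These letters are a form of the sequence bound by TCF/LEF factors, and other forms were neither searched nor marked. The sequences are the 250 bases before the gene start in the RefSeq annotation of GRCr8, chr10:94398535-94398784 on the + strand for Axin2 and chr19:34722847-34723096 on the - strand for Nkd1, with the matched letters in capitals.
Axin2: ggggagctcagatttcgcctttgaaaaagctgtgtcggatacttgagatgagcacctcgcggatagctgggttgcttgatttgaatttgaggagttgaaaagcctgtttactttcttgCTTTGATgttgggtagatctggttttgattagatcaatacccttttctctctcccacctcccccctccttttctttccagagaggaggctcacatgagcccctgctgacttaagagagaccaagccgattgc
Nkd1: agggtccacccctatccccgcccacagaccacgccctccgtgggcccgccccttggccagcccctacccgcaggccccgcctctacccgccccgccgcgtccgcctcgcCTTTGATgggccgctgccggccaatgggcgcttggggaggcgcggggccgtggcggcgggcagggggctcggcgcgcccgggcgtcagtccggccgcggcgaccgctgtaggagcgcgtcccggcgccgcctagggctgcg
The match began 132 bases before the start in Axin2 and 141 bases before it in Nkd1, on the strand of the gene in both. Both strands were searched, and CTTTGAT was present in 3.15% of the 33469 windows of the same length in the table. AGGTCA, the core letters bound by retinoic acid receptors, was present in 14.1% of all windows and in those of 2 of the 35 Wnt genes, Rnf43 and Wnt16. A direct repeat of AGGTCA with 5 bases between the copies, which contains those letters, was present in 0.00896% of all windows and in none of the 35. A match describes letters and not a bound site, 11 Wnt genes including Wnt7b and Notum had no entry, and the counts were made on another build.

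The remaining genes of the pathway were taken from lists chosen by function. The list for Wnt secretion and relay held 17 identifiers. They ran from Porcn and Wls, which lipidate and export Wnt proteins, to the Dishevelled genes and the kinases and scaffolds that degrade β-catenin. Of the 17, 0 were DEGs (4.96% of all genes tested) and 0 passed the adjusted p in edgeR (9.82% of all genes tested). The unadjusted p was below 0.05 in 2 of the 17, beside 24.0% of all genes tested, namely Dvl1 with a log2FC of 0.38 and Apc2 with -0.57. DESeq2 called 0 of them as DEGs. Among 10 nuclear cofactors, 0 were DEGs in edgeR or DESeq2, 3 had an unadjusted p below 0.05, a share near the 24.0% of all genes tested, and the co-repressor Tle3 passed the adjusted p at 0.42. Among 13 genes of the planar polarity branch, 0 were DEGs in edgeR or DESeq2, 5 had an unadjusted p below 0.05 (24.0% of all genes tested), and 3 passed the adjusted p, each lower in RA (4.5% of all genes tested). These were Prickle1 at -0.49, Prickle2 at -0.33 and Daam2 at -0.43.

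**Figure D5:**
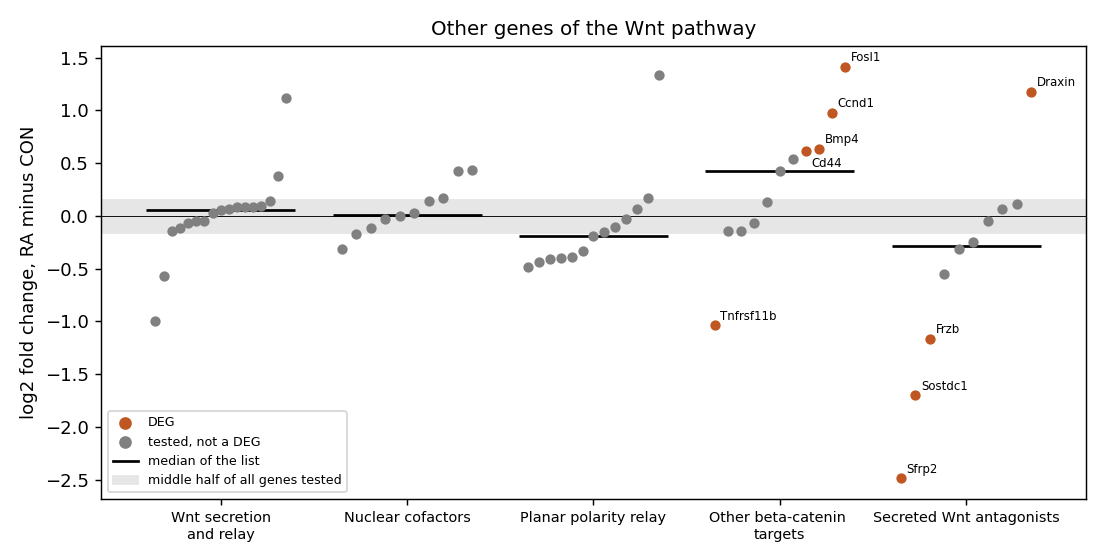
The log2FC (RA minus CON) of the tested genes in 5 further lists of the Wnt pathway, ordered within each list, with DEGs in orange and named, the list median as a black line and the range from the lower to the upper quartile of all genes tested as a grey band. The relay and cofactor lists lie around 0, while other β-catenin targets and secreted antagonists hold DEGs on both sides.

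Of 11 other known β-catenin targets tested, 4 were DEGs and higher (Fosl1, Ccnd1, Bmp4 and Cd44), beside 2.67% of all genes tested, and 1 was a DEG and lower (Tnfrsf11b), beside 2.29%, with a median log2FC of 0.43. Ccnd1, the gene of cyclin D1, went from 87.6, 94.6 and 89.8 FPKM in CON to 187, 177 and 176 FPKM in RA, a log2FC of 0.98 (SE 0.0551, edgeR adjusted p = 3.77e-05). Fosl1, an AP-1 factor, had a log2FC of 1.41, and Bmp4 one of 0.64. Tnfrsf11b, which encodes osteoprotegerin, went from 24.6, 21.1 and 19.3 FPKM in CON to 11.3, 9.30 and 11.3 FPKM in RA, a log2FC of -1.04. Past the adjusted p alone, Jun was higher at 0.53 (edgeR adjusted p = 0.00674) and Twist1 at 0.43 (edgeR adjusted p = 0.00369). Myc had -0.14 and Ccn4 had -0.068, and neither passed. Cd44, Jun, Twist1, Myc and Ccn4 are outside the naming rule and were named after their values were seen. These genes answer to many signals besides β-catenin. Of 10 secreted antagonists tested, the DEGs were Sfrp2 (-2.49), Sostdc1 (-1.70) and Frzb (-1.16), which were lower (2.29% of all genes tested), and Draxin (1.18), which was higher (2.67%). Frzb, the most abundant of them, went from 38.5, 39.6 and 38.7 FPKM in CON to 16.0, 18.2 and 18.3 FPKM in RA. Sostdc1 had 23, 14 and 28 reads in CON and 8, 7 and 3 reads in RA, and passed the filter on low counts through CON alone. It was not a DEG in any of the 6 fits in which 1 sample was omitted.

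As a check of the treatment, 6 of 9 tested retinoid response genes were DEGs and higher (2.67% of all genes tested) and 1 was a DEG and lower (2.29%). Cyp26a1, which degrades retinoic acid, had a log2FC of 3.35 and Cyp26b1 one of 2.65. Rarb was a DEG at 1.43 and kept the call in 1 of the 6 fits with a sample omitted.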

How the data were processed

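RNA of 3 CON and 3 RA samples was sequenced, and samples were grouped and numbered by their titles. The authors deposited for each sample raw counts of reads per gene, without normalization, and FPKM values. Over the 11944 genes with more than 20 reads in every sample, the count divided by FPKM and sample total gave the same length in all samples, so that for these genes no other factor enters the deposited FPKM. The submitters' processing notes list HISAT2, HTSeq 0.13.5 and Rnor_6.0, and the strand setting is not given in the sources used here. Reads of overlapping or antisense genes may therefore be counted together.

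Counts were tested with edgeR 4.0.16 in R 4.3.3 (filterByExpr with a minimum count of 10, TMM, glmQLFit and glmQLFTest, no covariates, all 6 samples), and p-values were adjusted by Benjamini-Hochberg over 13438 genes. Standard errors were derived from the F statistic. FPKM were used for levels and given as mean ± SD. The alternatives were RLE and total-count scaling, no filter, DESeq2 1.42.0, limma 3.58.1 on log2(FPKM + 0.1), a replicate block, other call rules and each sample left out. The tests were checked on simulated counts. The members and gene lists were chosen with earlier results of these data known. Named genes were every member past the adjusted p, the member of highest mean FPKM in each class and at most 4 DEGs of each further list. Other genes given singly were named after their values were seen, as were the remaining members, which are given so that each is accounted for. Promoters came from the RefSeq table of GRCr8, matched by symbol for 35 of 46 genes, and the motifs were chosen after the values were seen. Ccn4 was matched through its synonym Wisp1.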

Additional observations from a re-analysis of the deposited data

How the results depend on the processing

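The number of DEGs among the Wnt genes was 6 with all samples. It was 5 or 6 under RLE or total-count scaling, no filter on low counts, DESeq2 and limma on log2 FPKM. Omitting single samples gave 4 to 6 DEGs, not always drawn from the same 6 genes. Ror2 was called without CON sample 3, and Nkd1 without CON sample 2 or RA sample 1. Notum was called in 0 of these fits. With all samples and the adjusted p alone the number of Wnt genes called was 12, and with an unadjusted p and the fold threshold it was 8. Over all genes, the 667 DEGs became 1319 with the adjusted p alone and 1017 with the unadjusted p and the fold threshold, and ranged from 480 to 755 when single samples were omitted. Wnt2b, Wnt7b, Axin2 and Rspo3 kept their call under all 12 alternatives, while Fzd5 lost it under 5 and Notum under 8. The 8 for Notum include the fit without a filter (adjusted p = 0.053, edgeR, range over its alternatives 0.0275 to 0.149). With single samples omitted, log2 fold changes turned sign for Fzd2 (-0.19 to 0.23) and Fzd7 (-0.19 to 0.23), each without CON sample 1, and for Lgr4 (-0.019 to 0.020), without CON sample 3 or RA sample 3 (-0.0037). The cause was not tested.

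Samples with the same number did not deviate together, with correlations of 0.093, -0.012 and 0.012 for numbers 1, 2 and 3, so the numbers were not taken as pairs. Not every sample correlated best with its own number. With the replicate number as a block there were 684 DEGs over all genes and 5 among the Wnt genes, Notum being the one not called. The 9 Wnt genes below the filter had at most 17 reads in any sample. In the fit without a filter 0 of the 9 passed the adjusted p (0.454 to 0.894, edgeR) and 0 had an unadjusted p below 0.05, which at this depth does not show that they were alike between the groups.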
